A study of Homo sapiens with 8 samples.

Results

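The heat shock chaperones described here are 10 protein-coding genes, chosen by name from a deposited table of 58735 genes, and all 10 were found in it. They are HSPA6, HSPA1A, HSPA1B and HSPA8 of the Hsp70 family, the Hsp110 gene HSPH1, the J-domain gene DNAJB1, the Hsp90 gene HSP90AA1, the small heat shock gene HSPB1, and the mitochondrial pair HSPD1 and HSPE1. RNA was sequenced from a human hepatic cell line and a derivative of it. M14A printed (2 libraries) was M14A mixed into a bioink called GP and collected 4 h after printing. M14A flask (3 libraries) was the same line grown in culture flasks. HepaRG flask (3 libraries) was the unedited parent line under the same flask culture, with a wild-type genotype label. HepaRG is a bipotent hepatic progenitor line, labelled as hepatic stem cells, and M14A is HepaRG labelled as transfected with FoxM1 and HNF4A. Printed constructs were frozen and ground before RNA extraction whereas flask cells were detached and pelleted, so that printing and the way of collection cannot be told apart. The sources used here do not say whether M14A is 1 clone or whether replicates were separate cultures, and the p-values rest on the spread among these libraries alone, part of which may be technical.

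Chaperones bind unfolded or partly folded proteins and keep them from aggregating. Cytosolic stress chaperones are induced by the transcription factor HSF1, which is activated by unfolded protein and binds heat shock elements, arrays of the letters GAA and TTC in alternating orientation. Hepatocytes carry a high load of newly made secreted protein, and their cytosolic chaperones serve folding in unstressed cells as well as in stress. HSPA8 is the constitutive cytosolic Hsp70, HSPA1A and HSPA1B are near-identical inducible copies, and HSPA6 is a strictly stress-induced Hsp70 that mice lack. DNAJB1 stimulates the Hsp70 ATPase, HSPH1 exchanges the Hsp70 nucleotide, and HSP90AA1 is the inducible cytosolic Hsp90. HSPB1 holds unfolded protein without ATP, and HSPD1 and HSPE1 form the folding chamber and lid of the mitochondrial matrix.

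Promoters are shown as a description, since several of these genes are stress-induced. The part of promoters in the differences below was not tested. Windows of 300 bases, from 250 before to 50 after each transcript start, were taken from RefSeq on GRCh38.p14. All 10 genes matched, with 14 windows because some have several starts. Capitals mark the paired letters GAANNTTC or TTCNNGAA, searched on both strands, where both motifs are their own reverse complement and neighbouring pairs may overlap.
HSPA6 promoter, chr1:161524290-161524589, + strand: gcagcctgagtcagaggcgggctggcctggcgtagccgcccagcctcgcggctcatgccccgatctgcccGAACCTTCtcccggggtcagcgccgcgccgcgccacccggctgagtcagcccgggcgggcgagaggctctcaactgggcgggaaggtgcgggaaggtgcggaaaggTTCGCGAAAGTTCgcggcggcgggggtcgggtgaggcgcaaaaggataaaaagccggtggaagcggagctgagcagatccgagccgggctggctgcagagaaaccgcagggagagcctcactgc
HSPA8 promoter, chr11:123062087-123062386, - strand: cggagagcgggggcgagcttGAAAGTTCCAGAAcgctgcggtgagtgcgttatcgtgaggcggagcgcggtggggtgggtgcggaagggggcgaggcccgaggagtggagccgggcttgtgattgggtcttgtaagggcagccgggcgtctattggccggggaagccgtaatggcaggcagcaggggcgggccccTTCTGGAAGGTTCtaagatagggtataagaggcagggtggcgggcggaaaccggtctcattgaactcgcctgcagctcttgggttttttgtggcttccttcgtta
HSP90AA1 promoter, second start, chr14:102086995-102087294, - strand: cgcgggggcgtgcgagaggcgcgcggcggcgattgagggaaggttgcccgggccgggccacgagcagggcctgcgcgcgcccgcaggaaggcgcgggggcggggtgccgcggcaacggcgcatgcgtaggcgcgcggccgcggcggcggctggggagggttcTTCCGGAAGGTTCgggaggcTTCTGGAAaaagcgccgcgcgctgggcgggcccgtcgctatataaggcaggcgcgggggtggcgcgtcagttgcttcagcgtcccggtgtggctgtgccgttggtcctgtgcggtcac
HSPD1 promoter, second start, chr2:197499791-197500090, - strand: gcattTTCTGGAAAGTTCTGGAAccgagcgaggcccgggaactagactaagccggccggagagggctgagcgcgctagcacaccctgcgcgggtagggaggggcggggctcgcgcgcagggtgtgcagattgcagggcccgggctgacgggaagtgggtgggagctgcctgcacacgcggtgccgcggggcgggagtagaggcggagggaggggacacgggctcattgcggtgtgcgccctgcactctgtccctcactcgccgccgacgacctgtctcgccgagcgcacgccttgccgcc
DNAJB1 promoter, second start, chr19:14518348-14518647, - strand: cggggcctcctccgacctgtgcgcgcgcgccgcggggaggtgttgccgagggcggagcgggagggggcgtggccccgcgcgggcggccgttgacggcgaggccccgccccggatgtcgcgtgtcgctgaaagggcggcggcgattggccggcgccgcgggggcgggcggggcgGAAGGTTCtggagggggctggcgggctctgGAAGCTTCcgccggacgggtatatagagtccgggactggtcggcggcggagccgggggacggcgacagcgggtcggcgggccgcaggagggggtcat
HSPA1A promoter, chr6:31815293-31815592, + strand: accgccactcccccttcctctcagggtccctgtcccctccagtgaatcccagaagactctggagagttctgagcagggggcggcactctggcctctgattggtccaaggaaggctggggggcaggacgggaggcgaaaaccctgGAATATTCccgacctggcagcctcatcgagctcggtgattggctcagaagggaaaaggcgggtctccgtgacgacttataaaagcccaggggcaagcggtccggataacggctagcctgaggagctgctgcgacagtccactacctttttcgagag

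At least 1 such pair lay in 9 of the 14 windows and in 8 of the 10 genes, against 13.5% of 35116 promoter windows of the same length. Arrays of 3 units, in which a pair is followed after any 2 bases by a further GAA or TTC unit in alternating orientation, contain overlapping pairs. They lay in 4 windows of 4 genes, HSPA6, HSPA8, HSP90AA1 and HSPD1, against 0.49% of all windows. HSPA8 had 2 such arrays, one beginning 230 and the other 55 bases before its start. HSPD1 also had 2 such arrays, which overlap in a single longer array that spans 18 bases at chr2:197500068-197500085. It lies between the second RefSeq start of HSPD1 and the HSPE1 start, which are 539 bases apart on opposite strands. It reaches from 228 to 245 bases before that second HSPD1 start. Relative to the first HSPD1 start it lies downstream, outside the first window, which held no pair. Measured from the HSPE1 start it lies 294 to 311 bases upstream, outside the window used, so the HSPE1 window held no pair. The HSPH1 window held none either. HSPA1A and HSPA1B each had 1 pair and the letters TATAAA, which are in 11.5% of all windows. A match of letters is a description and does not show binding.

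**Figure D1:**
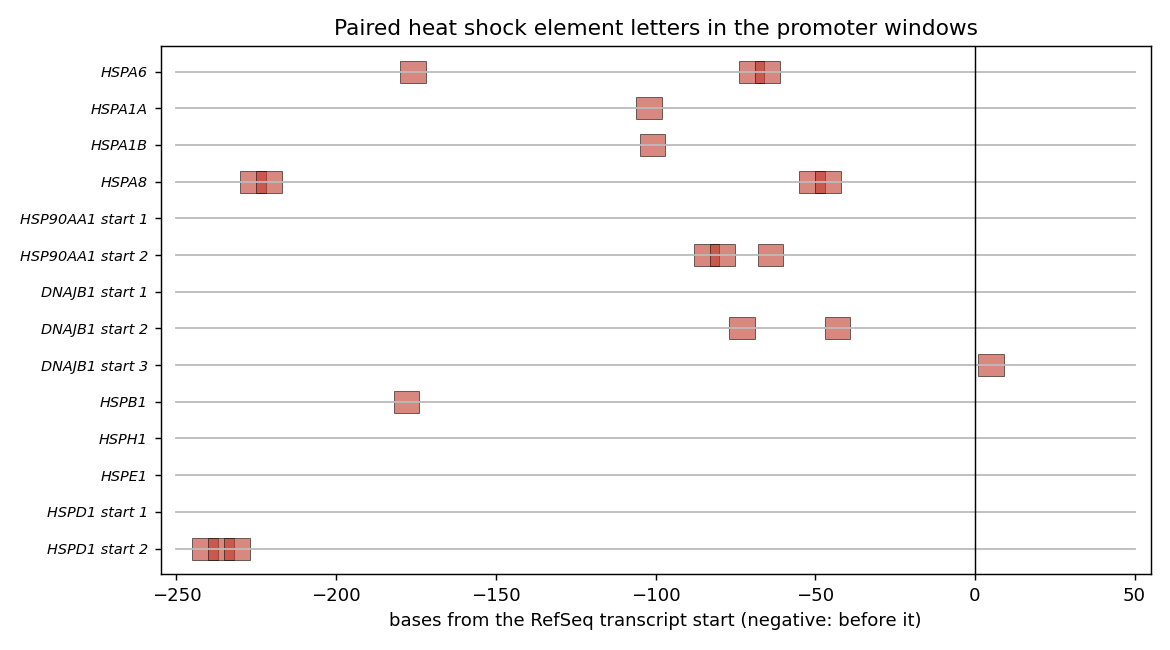
Position of each paired motif (red boxes of 8 bases, darker where pairs overlap) along the 14 promoter windows, in bases from the RefSeq transcript start. Overlapping pairs sit in the windows of HSPA6, HSPA8, HSP90AA1 and HSPD1, and the windows of HSPH1 and HSPE1 are empty.

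Levels are given in FPKM as the authors deposited them, that is, fragments relative to gene length in kilobases and to a size set for each library. That size did not follow the reads. A read on a gene of 1 kb counted 0.0747 FPKM in M14A printed library 1, which had 16356533 reads. It counted 0.0512 FPKM in M14A flask library 2, which had 16939965 reads. At an equal share of reads, FPKM were thus higher in M14A printed than in either flask group. The FPKM values correspond to 15632154 to 19148262 reads a library, of which 65215 to 81989 fell on these 10 genes. The FPKM of a library sum to 499995 and 514152 in M14A printed, against 272290 to 350931 in M14A flask and 254141 to 266419 in HepaRG flask. Mitochondrially encoded genes took 13.3 and 16.4% of reads in M14A printed, against 8.21 to 9.72% in M14A flask and 6.91 to 7.25% in HepaRG flask. M14A flask library 1 stood apart, with correlations across genes of 0.957 and 0.948 with libraries 2 and 3 of its group, which correlated at 0.988. Of 9 hepatic and progenitor markers 6 reached 1 FPKM in every library of each group, KRT8, KRT18, KRT19, ALB, SOX9 and HNF4A, while EPCAM was at 0 in all M14A libraries. HNF4A, one of the transfected factors, was at 17.1 and 13.6 FPKM in M14A printed, against 37.9 to 43.1 FPKM in M14A flask and 5.67 to 6.50 FPKM in HepaRG flask. Summed endothelial markers (4 genes) reached 1.97 FPKM in M14A printed, 2.18 in M14A flask and 1.12 in HepaRG flask, with CDH5 at 0 throughout. Summed leukocyte and Kupffer markers (5 genes), nearly all of it MARCO, were 2.24 and 2.54 FPKM in M14A printed, against 0.840 to 1.04 in M14A flask and 0.293 to 0.522 in HepaRG flask, with PTPRC at or near 0. Summed stellate and fibroblast markers (6 genes) were 51.0 and 51.8 FPKM in M14A printed, against 17.9 to 35.8 in M14A flask and 8.33 to 8.50 in HepaRG flask, nearly all of it DCN in the M14A libraries. Their part in the results below was not tested.

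The first comparison sets M14A printed, 4 h after printing, against M14A flask. HSPA6 and HSPE1 were higher in printed cells, and HSPB1 was higher with a call that depended on the setting. DNAJB1, HSPA8, HSPA1A, HSPA1B, HSP90AA1, HSPH1 and HSPD1 did not pass the test. Differences are log2 fold changes of FPKM + 1 from limma fitted over 14349 genes with all 8 libraries, and genes count as called when the p adjusted by Benjamini and Hochberg's method is under 0.05. Of the 10 genes 3 were called higher, where 17.7% of all genes tested were called higher, and 0 were called lower, where 15.5% were, 33.2% in either direction. The median log2 fold change of the 10 was 0.69, against 0.01 over all genes. It depended on the scaling, at -0.11 against 0.03 under quantile normalization and -0.05 against -0.51 at equal FPKM totals. With the length and GC trend removed it was 0.56 against 0.02. All 10 passed the filter of 1 FPKM in at least 2 libraries, HSPA6 only through the printed libraries, so its call is no independent support. On the deposited scale 4 of the 10 were higher in printed cells without overlap of the groups (HSPA6, HSPB1, HSPE1 and HSPD1), where 26.9% of all genes were. On that scale 0 were lower, where 24.4% of all genes were. Taken as a share of each library's reads, HSPB1 and HSPD1 overlapped. In bulk RNA, fewer cells with a transcript and less of it per cell cannot be told apart.

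HSPA6 (ENSG00000173110, chromosome 1, 161524540 to 161526910 on GRCh38) stood at 8.54 and 5.36 FPKM in the printed libraries. It stood at 0.660, 0.389 and 0.0643 FPKM in M14A flask and at 0.134, 0.183 and 0.282 FPKM in HepaRG flask. Both printed values lie far above all flask values, which rest on 3 to 25 reads each, against 271 and 206 reads in printed cells. The log2 fold change was 2.53 (SE 0.23, limma adjusted p = 5.3e-04), and the ratio of mean FPKM was 18.7. With a pseudocount of 0.1 the log2 fold change was 4.12, since a pseudocount of 1 understates a change from such a low level. A share of 27.6% of its 100-base stretches also occurs in the pseudogene HSPA7, which was listed at 0.155 and 0 FPKM in printed cells and at most 0.124 FPKM in flask cells.

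HSPE1 (ENSG00000115541, chromosome 2, 197499994 to 197503457) stood at 48.3 and 46.2 FPKM in M14A printed, against 21.4, 20.2 and 21.7 FPKM in M14A flask. HepaRG flask libraries had 23.4, 20.1 and 20.7 FPKM. The flask lines overlap and the printed mean is 2.24 times the M14A flask mean, a gap far above the SD of 1.44 FPKM in printed and 0.808 FPKM in M14A flask cells. The log2 fold change was 1.13 (SE 0.13, limma adjusted p = 9.0e-04), and HSPE1 was also called in each of the 21 alternative settings. Its smallest value was 0.38, at equal FPKM totals. Of its exon bases 14.2% lie antisense to HSPD1 exons and 9.71% in the readthrough gene HSPE1-MOB4, listed at 0 in every library. Reads on such shared bases may be lost or assigned to either gene, for antisense bases only if strand was not used. The setting is not stated, and the same limit holds for HSPD1 and for the ratio of these genes.

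HSPD1 (ENSG00000144381, chromosome 2, 197486581 to 197516737), the chamber partner of HSPE1, stood at 170.4 and 199.8 FPKM in M14A printed. In M14A flask it stood at 83.6, 137 and 150.2 FPKM, and in HepaRG flask at 148, 138 and 142 FPKM. Printed values lie above all flask values on the deposited scale, but M14A flask library 1 is low and spreads its group. In reads, HSPD1 had 9679 in M14A printed library 1 and 12545 in M14A flask library 3, of 16356533 and 16590991 reads. M14A printed library 2 had 13753, of 19017369 reads. The log2 fold change was 0.62 (SE 0.24, limma adjusted p = 0.076), which did not pass, and without M14A flask library 1 it was 0.36 (adjusted p = 0.018). Its sign turned at equal FPKM totals (-0.14) and under quantile normalization (-0.13). The ratio of HSPD1 to HSPE1 FPKM was 3.53 and 4.32 in M14A printed, against 3.90, 6.79 and 6.91 in M14A flask and 6.32, 6.86 and 6.84 in HepaRG flask. The ratio of M14A flask library 1 lies between those of the printed libraries.

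HSPB1 (ENSG00000106211, chromosome 7, 76302544 to 76304295) stood at 467 and 369 FPKM in M14A printed, against 333, 196 and 182 FPKM in M14A flask. HepaRG flask libraries had 293, 268 and 311 FPKM. On the deposited scale the printed libraries are the highest of the 8. M14A flask library 1 lies above all HepaRG values and M14A flask libraries 2 and 3 below them. In reads, HSPB1 had 9786 in M14A printed library 2 and 8688 in M14A flask library 1, of 19017369 and 16500956 reads. As a share of reads these groups overlap. The log2 fold change of printed over flask M14A was 0.86 (SE 0.25, limma adjusted p = 0.031). The call held in 8 of 21 alternative settings and was lost without any single library other than M14A flask library 1, with an adjusted p of 0.051 to 0.18 and a log2 fold change of 0.69 to 1.03. It was also lost at equal FPKM totals (log2 fold change 0.10, adjusted p = 0.63) and turned to -0.08 under quantile normalization (adjusted p = 0.65).

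The inducible copies HSPA1A (ENSG00000204389, chromosome 6, 31815464 to 31817946) and HSPA1B (ENSG00000204388, chromosome 6, 31827735 to 31830255) share 67.3 and 68.8% of their 100-base stretches, so that reads may be split or lost between them. HSPA1A stood at 39.5 and 33.6 FPKM in M14A printed, against 39.2, 17.0 and 13.7 FPKM in M14A flask and 27.8, 29.2 and 31.0 FPKM in HepaRG flask. HSPA1B stood at 28.9 and 26.0 FPKM in M14A printed, against 27.7, 13.6 and 10.1 FPKM in M14A flask and 16.9, 17.3 and 20.5 FPKM in HepaRG flask. Both copies show the same order, with M14A flask library 1 among the printed values and libraries 2 and 3 below all others. The ratio of HSPA1A to HSPA1B FPKM was 1.37 and 1.29 in M14A printed, against 1.42, 1.25 and 1.36 in M14A flask and 1.64, 1.69 and 1.51 in HepaRG flask. All HepaRG ratios lie above those of the M14A libraries, a difference that was not tested. In printed over flask M14A the log2 fold change was 0.77 for HSPA1A (SE 0.36, limma adjusted p = 0.14) and 0.77 for HSPA1B (SE 0.34, limma adjusted p = 0.12), neither called. At equal FPKM totals these values were 0.03 for HSPA1A and 0.04 for HSPA1B (limma adjusted p = 0.93 and 0.91). They were 0.21 for both when mitochondrial genes were left out of those totals, and 0.48 and 0.56 under quantile normalization. Summed to 1 value, they were not called in printed over flask M14A (log2 fold change 0.79, SE 0.36, limma adjusted p = 0.13). Without M14A flask library 1 the sum was called higher in printed cells (log2 fold change 1.21, SE 0.14, limma adjusted p = 4.4e-04). A share of 36.5% of HSPA1B exon bases lies in another annotated gene, AL671762.1.

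HSPA8 (ENSG00000109971, chromosome 11, 123057489 to 123063230) had the highest FPKM of the 10 genes in 5 of the 8 libraries, and HSPB1 in the other 3. It stood at 422 and 427 FPKM in M14A printed, against 538, 286 and 298 FPKM in M14A flask and 280.4, 277 and 288 FPKM in HepaRG flask. The printed libraries lie close together, between M14A flask library 1 and the rest. Its log2 fold change in printed over flask M14A was 0.25 (SE 0.25, 95% interval -0.33 to 0.82, limma adjusted p = 0.49). Without M14A flask library 1 it was called higher (0.54, SE 0.06, adjusted p = 5.4e-04), but at equal FPKM totals with all libraries it was called lower (-0.52, adjusted p = 0.027), as under quantile normalization (-0.75, adjusted p = 0.0030). HSPA8 made up 84.6 and 86.8% of the summed FPKM of the 4 Hsp70 genes in M14A printed, against 88.8 to 92.6% in M14A flask and 84.8 to 86.2% in HepaRG flask.

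DNAJB1 (ENSG00000132002, chromosome 19, 14514770 to 14529770) stood at 37.1 and 37.7 FPKM in M14A printed, against 53.4, 32.3 and 29.5 FPKM in M14A flask and 37.1, 38.8 and 39.7 FPKM in HepaRG flask. The groups overlap in every pairing. Its log2 fold change in printed over flask M14A was 0.01 (95% interval -0.52 to 0.54, limma adjusted p = 0.98), and without M14A flask library 1 it was 0.27 (adjusted p = 0.024). At equal FPKM totals DNAJB1 was called lower in printed cells (-0.73, adjusted p = 0.0038). Of its exon bases 6.21% are antisense to other genes.

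HSP90AA1 (ENSG00000080824, chromosome 14, 102080738 to 102139699) stood at 162 and 200.2 FPKM in M14A printed, against 87.3, 160.0 and 170.0 FPKM in M14A flask. HepaRG flask libraries had 156, 146 and 150.3 FPKM. Its printed values overlap those of M14A flask, with library 1 of the flask group low (log2 fold change 0.43, SE 0.27, limma adjusted p = 0.25). At equal FPKM totals and under quantile normalization its value was -0.33 in both. HSPH1 (ENSG00000120694, chromosome 13, 31134974 to 31162388), the longest of the 10 at 8390 bases, stood at 8.23 and 10.9 FPKM in M14A printed. M14A flask had 6.71, 14.5 and 15.4 FPKM, and HepaRG flask 15.9, 16.1 and 16.2 FPKM. Here the printed libraries lie below all flask libraries other than M14A flask library 1, which is the lowest of the 8 (log2 fold change -0.25, SE 0.30, limma adjusted p = 0.55).

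**Figure D2:**
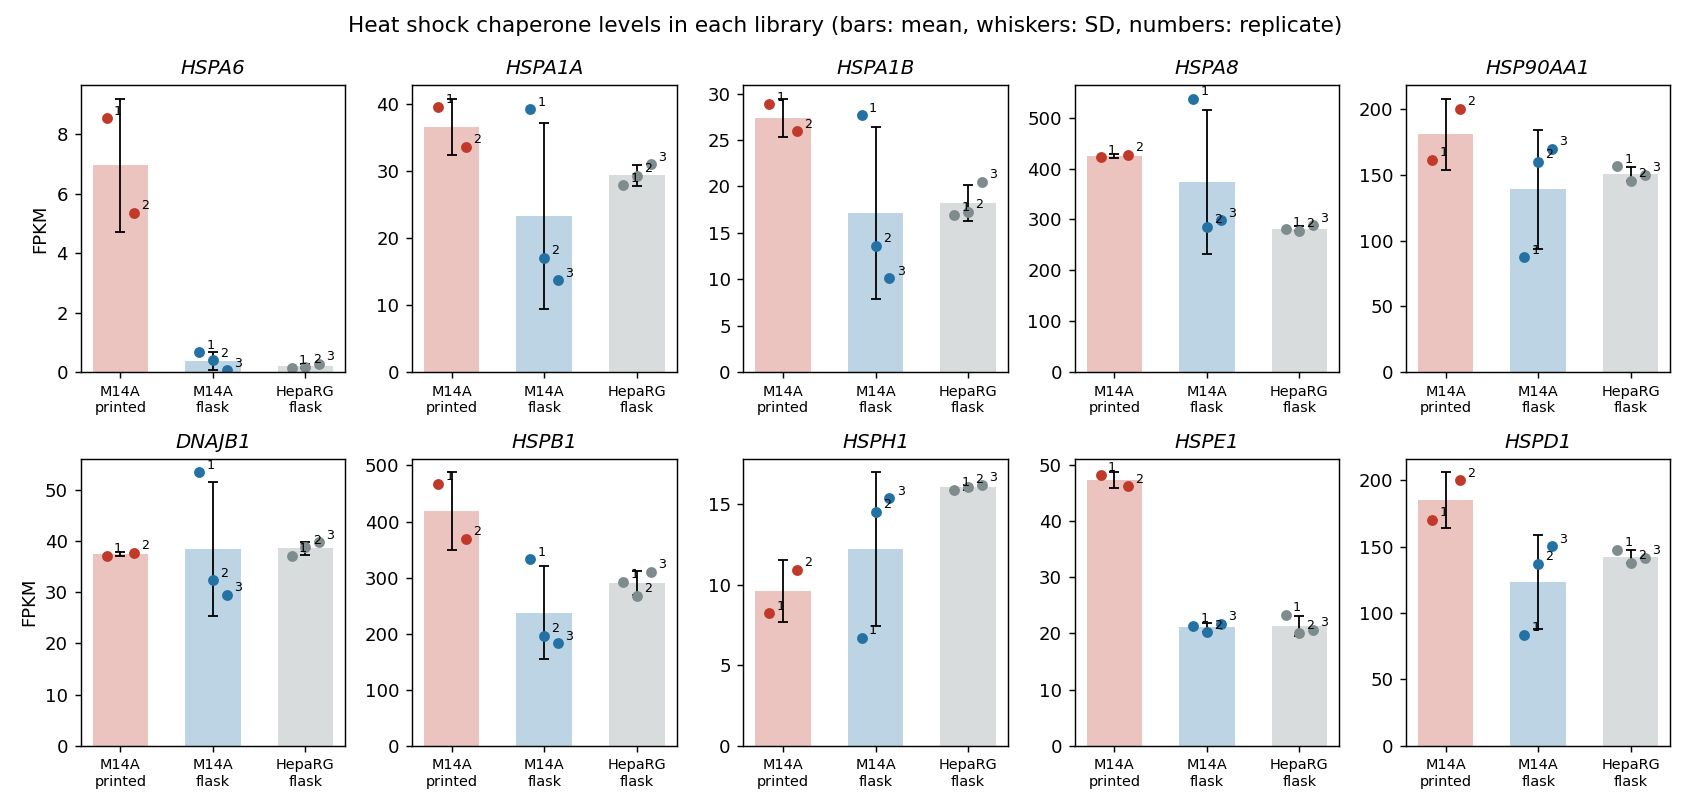
FPKM of each of the 10 genes in the M14A printed (red, n = 2), M14A flask (blue, n = 3) and HepaRG flask (grey, n = 3) libraries, on linear axes from 0. Points are libraries with their replicate number, bars are means and whiskers SD. Printed values of HSPA6 and HSPE1 lie apart from all flask values, and M14A flask library 1 lies close to libraries 2 and 3 in HSPE1 and away from them in most other panels.

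Leaving out M14A flask library 1 changed most of these calls. Relative to the mean of libraries 2 and 3 it was 2.91 times as high for HSPA6, 2.55 for HSPA1A, 2.33 for HSPA1B, 1.84 for HSPA8, 1.76 for HSPB1 and 1.73 for DNAJB1. It was 0.582 times as high for HSPD1, 0.529 for HSP90AA1 and 0.449 for HSPH1, and 1.02 for HSPE1. Without it 8 of the 10 genes were called higher in M14A printed and 1 lower, where 28.4% of all genes were called higher and 27.1% lower (55.5% in all). The gene called lower was HSPH1 (log2 fold change -0.60, SE 0.12, limma adjusted p = 0.0052), and HSP90AA1 was not called (0.12, 95% interval -0.13 to 0.38, adjusted p = 0.36). HSPB1 was then called with a log2 fold change of 1.13 (SE 0.13, adjusted p = 4.1e-04), HSPE1 with 1.14 (SE 0.09) and HSPA6 with 2.68 (SE 0.21). These calls hold for the deposited scale. No fit at equal FPKM totals or under quantile normalization left that library out. Its FPKM total of 350931 was nearer those of the printed libraries than the 278335 and 272290 of libraries 2 and 3. The part of this in the calls was not tested. With M14A flask library 1 kept and either printed library left out, 1 gene was called, HSPE1, and HSPA6 then fell under the filter.

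**Figure D3:**
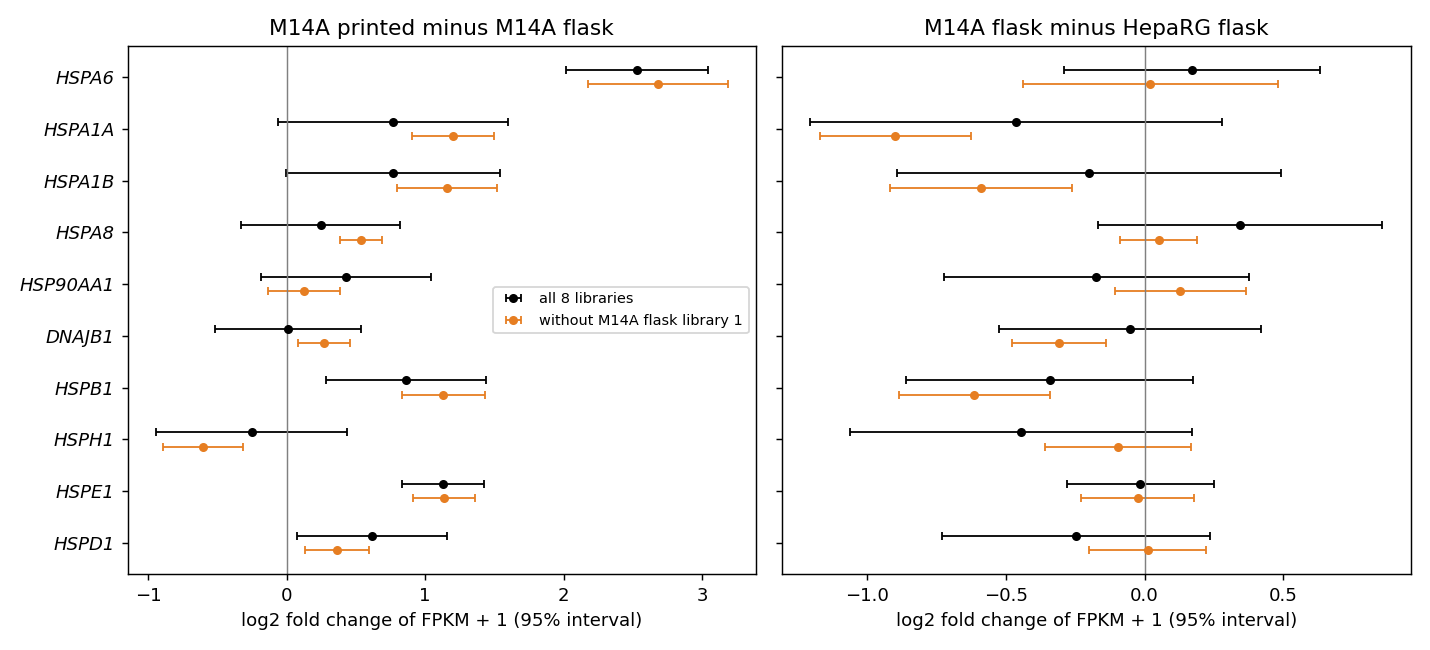
Log2 fold change of FPKM + 1 with 95% interval (limma) for M14A printed minus M14A flask (left) and M14A flask minus HepaRG flask (right). Black marks use all 8 libraries, orange marks leave out M14A flask library 1. Intervals of HSPA6, HSPB1, HSPE1 and HSPD1 lie above 0 on the left in both fits, although HSPD1 was not called with all libraries after adjustment, and in the fit of all libraries every interval on the right includes 0.

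Gene length and the scaling moved with the printed libraries. Median log2 fold changes in printed over flask M14A were 0.21 for genes up to 2 kb, 0.20 from 2 to 4 kb, 0.01 from 4 to 6 kb and -0.19 above 6 kb. HSPB1 and HSPE1 are in the first of these classes, at 1634 and 1977 bases, and HSPH1 is in the last. With each library's trend with length and GC content removed, HSPE1 was at 0.83 and HSPB1 at 0.70 (limma adjusted p = 1.9e-04 and 0.0025), and HSPA6 at 2.34. HSPD1 was then also called (0.53, adjusted p = 0.033). The 10 genes summed to 1392 and 1356 FPKM in M14A printed, against 877 to 1190 FPKM in M14A flask and 950.0 to 1019 FPKM in HepaRG flask. As a share of reads outside the mitochondrial genes they took 0.46 and 0.516% in M14A printed, against 0.438 to 0.475% in M14A flask and 0.46 to 0.481% in HepaRG flask. These read shares overlap between all groups. At equal FPKM totals the median of all genes shifted to a log2 fold change of -0.51 in printed cells, and 2 of the 10 genes were called higher (HSPA6 and HSPE1) and 2 lower (HSPA8 and DNAJB1), against 3.45% of all genes called higher and 46.1% called lower there.

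The other comparison sets M14A flask against HepaRG flask, the edited line against its parent. Of the 10 genes 0 were called in either direction by limma, where 16.1% of all genes were called higher and 14.7% lower (30.9% in all), and 0 had an unadjusted p below 0.05. The median log2 fold change of the 10 was -0.19, against -0.04 over all genes. Voom on the recovered reads, which keeps the deposited scale, also called 0. The widest interval was that of HSPA1A (log2 fold change -0.46, 95% interval -1.20 to 0.28), and the narrowest that of HSPE1 (-0.01, -0.28 to 0.25). HSPH1 was the only gene of the 10 with groups that did not overlap, lower in M14A flask, where 27.4% of all genes were lower and 25.7% higher without overlap. Without M14A flask library 1, 4 of the 10 were called lower in M14A flask and 0 higher, where 22.7% of all genes were called lower and 20.3% higher (43% in all). These were HSPA1A (-0.90, adjusted p = 8.5e-04), HSPB1 (-0.61, adjusted p = 0.0050), HSPA1B (-0.59, adjusted p = 0.013) and DNAJB1 (-0.31, adjusted p = 0.012). When trends with gene length and GC were taken out and all libraries kept, HSPA1A (-0.64) and HSPB1 (-0.52) were called lower (adjusted p = 0.042 for HSPA1A and 0.0059 for HSPB1).

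Set beside HepaRG flask without a test, M14A printed had higher values without overlap in 8 of the 10 genes, where 38.5% of all genes did, and lower values in 1, HSPH1, where 41.8% of all genes did. DNAJB1 overlapped. These counts and the group orders below hold for the deposited scale. Taken as a share of each library's reads, HSPA6, HSPA8 and HSPE1 stayed higher in M14A printed without overlap. By that share HSPA1A, HSP90AA1 and DNAJB1 were lower without overlap, as was HSPH1, and HSPA1B, HSPB1 and HSPD1 overlapped. By mean FPKM the order of the groups for HSPA1A, HSPA1B, HSP90AA1, HSPB1, HSPD1 and HSPE1 was M14A printed, HepaRG flask, M14A flask, from high to low, and neither flask group stood apart from the other in any of them. For HSPA6 and HSPA8 the order was M14A printed, M14A flask, HepaRG flask. For HSPH1 it was HepaRG flask, M14A flask, M14A printed, with both M14A groups overlapping.

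Other genes of the chaperone network were read from 8 lists of 83 genes, 76 of them tested. In M14A printed over M14A flask 25 were called higher and 4 lower, against the same 17.7 and 15.5% of all genes. The split turned with the scaling, to 4 higher and 30 lower at equal FPKM totals, against 3.45 and 46.1% of all genes. It was 13 higher and 6 lower under quantile normalization, against 16.8 and 15.8% of all genes, so that the directions here hold for the deposited scale. Of the 25 rises 12 were in the cytosolic chaperonin TRiC, which folds actin and tubulin, and in prefoldin, which hands substrates to it. Of 14 such genes 12 were called higher and 0 lower, with a median log2 fold change of 0.65. Prefoldin subunit PFDN5 averaged 80.6 ± 11.7 FPKM in M14A printed and 28.4 ± 2.45 FPKM in M14A flask (SD, n = 2 and 3), a log2 fold change of 1.47 (SE 0.15, limma adjusted p = 6.3e-04). PFDN2 averaged 136 ± 5.60 FPKM in M14A printed and 64.2 ± 11.01 FPKM in M14A flask (log2 fold change 1.08, limma adjusted p = 0.0022). The TRiC and prefoldin count was 13 without M14A flask library 1 and 10 with the length and GC trend removed. It was 5 without either printed library and 5 under quantile normalization. At equal FPKM totals 2 were called higher and 2 lower.

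Of the regulators of the response, some rose and the factors themselves were not called. HSBP1, a negative regulator that binds HSF1, averaged 21.4 ± 1.37 FPKM in M14A printed and 8.75 ± 0.366 FPKM in M14A flask (log2 fold change 1.20, limma adjusted p = 6.0e-04). HIKESHI, the carrier that brings Hsp70 into the nucleus on heat stress, averaged 21.4 ± 3.21 FPKM in M14A printed and 10.6 ± 1.43 FPKM in M14A flask (0.95, adjusted p = 0.0029). HSF1 itself averaged 25.7 ± 8.17 FPKM in M14A printed and 20.2 ± 5.44 FPKM in M14A flask and was not called (0.33, adjusted p = 0.32), nor was HSF2 (0.19, adjusted p = 0.57), and both turned negative at equal FPKM totals (-0.40 and -0.42). The list of 5 regulators held 2 called higher and 0 lower. Among 9 other heat shock response genes 4 were called higher and 0 lower. At equal FPKM totals 1 of these 9 was called higher and 5 lower, and under quantile normalization 3 higher and 0 lower. ZFAND2A, an arsenite- and heat-induced regulator of proteasome binding, averaged 12.5 ± 2.35 FPKM in M14A printed and 4.09 ± 0.352 FPKM in M14A flask (1.39, adjusted p = 7.2e-04). The polyubiquitin gene UBB averaged 204 ± 14.1 FPKM in M14A printed and 97.9 ± 30.6 FPKM in M14A flask (1.09, adjusted p = 0.0070).

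Of 13 Hsp90 paralogs and cochaperones 3 were called higher and 0 lower, among them CACYBP (log2 fold change 0.73, adjusted p = 0.012) and the kinase-loading cochaperone CDC37 (0.62, adjusted p = 0.021) by limma. At equal FPKM totals CDC37 turned to -0.14. Of 11 Hsp70 exchange and helper factors 3 rose and 1 fell, with BAG1 at 32.4 ± 2.04 FPKM in M14A printed and 17.1 ± 5.95 FPKM in M14A flask (0.93, adjusted p = 0.016). BAG5, another exchange factor, was at 5.93 ± 0.0318 FPKM in M14A printed and 12.0 ± 2.02 FPKM in M14A flask (-0.90, adjusted p = 0.0037). BAG3 was at 32.5 ± 5.91 FPKM in M14A printed and 59.8 ± 24.9 FPKM in M14A flask. It was lower without overlap but not called (-0.80, limma adjusted p = 0.059). Of 6 other Hsp70 and Hsp110 paralogs 0 rose and 2 fell, HSPA12A (-0.61, adjusted p = 0.012) and HSPA14 (-0.41, adjusted p = 0.038). Of 13 other J-domain genes 0 rose and 1 fell, DNAJC5 (-0.76, adjusted p = 0.020). Of 5 other small heat shock genes 1 rose, HSPB11 (0.91, adjusted p = 0.0013), an intraflagellar transport subunit in spite of its name.

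**Figure D4:**
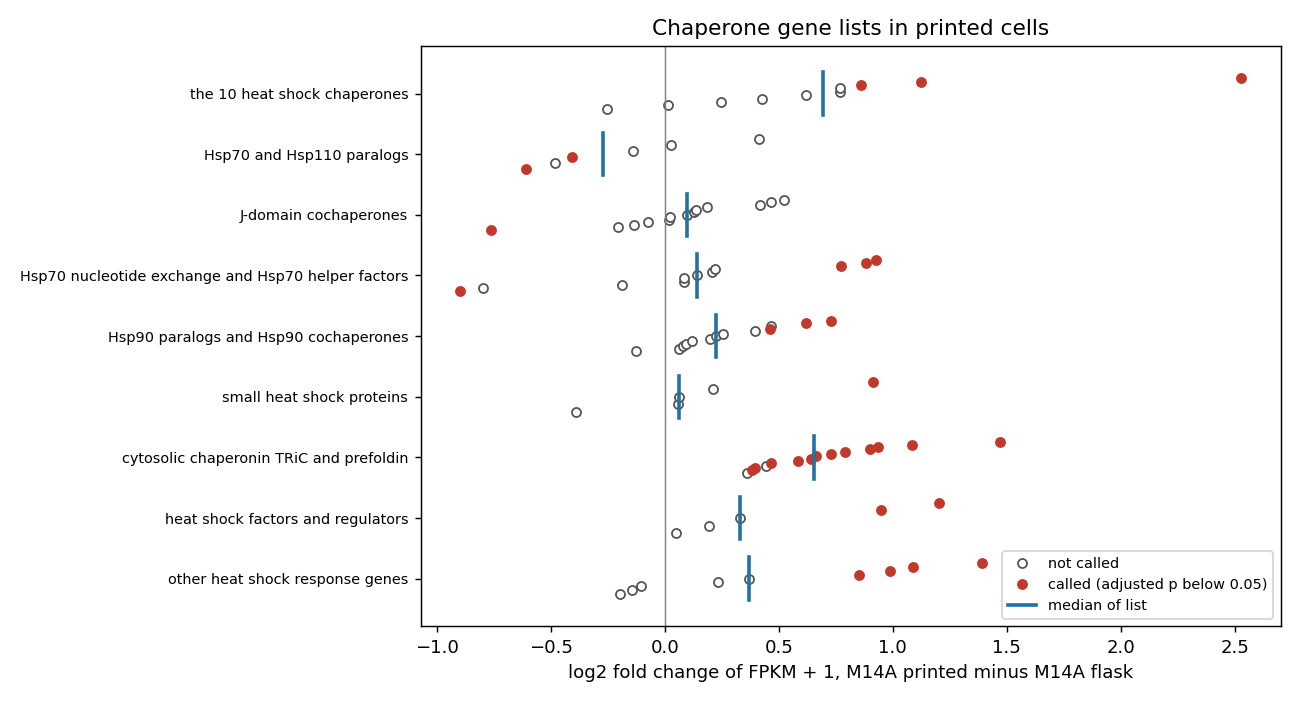
Log2 fold change of FPKM + 1 in M14A printed minus M14A flask for the 10 heat shock chaperones and 8 further lists, 1 point per tested gene. Filled red points were called by limma at an adjusted p below 0.05, open points were not, and blue lines are list medians; all 14 TRiC and prefoldin genes lie right of 0.

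Between the flask-grown lines 5 of the 76 genes were called higher and 6 lower, against 16.1 and 14.7% of all genes. The Hsp70 cochaperone ST13 averaged 21.0 ± 3.68 FPKM in M14A flask and 46.9 ± 1.43 FPKM in HepaRG flask (log2 fold change -1.14, SE 0.15, limma adjusted p = 7.0e-04). DNAJB4 averaged 3.85 ± 1.65 FPKM in M14A flask and 9.64 ± 0.439 FPKM in HepaRG flask (-1.20, adjusted p = 0.0066). The small heat shock gene HSPB3 averaged 0.340 ± 0.0871 FPKM in M14A flask and 5.20 ± 1.17 FPKM in HepaRG flask (-2.20, adjusted p = 2.2e-05). CHORDC1 (-0.71, adjusted p = 0.011) and PPID (-0.59, adjusted p = 0.020), both Hsp90 cochaperones, and the prefoldin subunit VBP1 (-0.56, adjusted p = 0.024) were also called lower. Higher in M14A flask were IER5 (1.21, adjusted p = 0.0054), which activates HSF1, the prefoldin subunit PFDN1 (0.73, adjusted p = 0.0038), BAG1 (0.74, adjusted p = 0.026) and the disaggregase CLPB (0.51, adjusted p = 0.029). HSF1 (-0.08, adjusted p = 0.79) and HSF2 (-0.47, adjusted p = 0.12) were not called, nor was the mitochondrial Hsp70 gene HSPA9 (-0.26, adjusted p = 0.21).

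Pearson correlations of log2(FPKM + 1) between the 10 genes over the 8 libraries are given as a description, since the libraries fall into 3 groups and share scaling. HSPA1A and HSPA1B correlated at 0.96, HSPB1 with them at 0.93 and 0.94, HSP90AA1 with HSPD1 at 0.97 and HSPA6 with HSPE1 at 0.97, where the printed libraries set both high values. HSPA8 and HSPH1 ran opposite, at -0.97. Without M14A flask library 1 these were 0.95, 0.95 and 0.97, 0.87, 0.98 and -0.93. Other pairs turned with that library. HSPA8 and HSPD1 correlated at -0.28 with all libraries and at 0.93 without it, and HSPA8 and HSP90AA1 at -0.45 and 0.71. Of the 45 pairs 17 were negative with all libraries and 10 without it, and 9 of those 10 were the pairs with HSPH1. Among 6318 protein-coding genes with a mean of at least 5 FPKM, those closest to DNAJB1 outside the 10 were glutamine synthetase GLUL (0.991), the mitochondrial J-domain gene DNAJA3 (0.989) and PPP2R5D (0.976). Closest to HSPA8 were citrate synthase CS (0.996), JPT2 (0.992) and SLC25A4 (0.987). Without M14A flask library 1 these correlations were 0.975, 0.977 and 0.943 with DNAJB1 and 0.991, 0.984 and 0.977 with HSPA8. M14A flask library 1 is the highest of the 8 for DNAJB1, HSPA8 and each of these 6 genes.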

How the data were processed

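RNA of 8 libraries was sequenced, in groups taken from the sample titles. TRIzol extraction and NEBNext Ultra library preparation are recorded per the labels' protocols. The tools listed per the submitters' processing notes are HISAT2 2.0.5 and featureCounts 1.5.0-p3. For read length, strand setting and multi-mapping reads, no setting is stated in the labels. The authors deposited FPKM values per gene and library with gene lengths. The build is not stated, but all 58735 gene positions equal GENCODE 29 on GRCh38. All value columns were matched to samples by name.

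FPKM times length gave whole reads (tolerance 0.01) for 99.92 to 99.98% of values, and voom on these reads was an alternative. Voom used the library sizes implied by the deposited FPKM, so it keeps the deposited scale and cannot check it. Testing covered genes that reached 1 FPKM in 2 or more libraries, on log2(FPKM + 1) by limma 3.58.1 in R 4.3.3 with trend, in 1 fit of 3 group means with 5 residual degrees of freedom, two-sided, Benjamini-Hochberg adjusted over 14349 genes. Both comparisons share the M14A flask libraries. The fit was tested on simulated data with 200 changed genes. The simulation gave all libraries the same spread and set none apart as M14A flask library 1 is. It therefore cannot judge the effect of that library on the calls. The 10 genes and the other lists were chosen with earlier results of these data known. Other genes named were, per list and comparison, up to 2 called genes of largest change or else the most abundant, with HSF1 and HSF2, and the 3 genes closest to DNAJB1 and to HSPA8. BAG3 was named outside this rule. Alternatives were other pseudocounts, filters, scalings, thresholds, fits and each library left out.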

Additional observations from a re-analysis of the deposited data

How the results depend on the processing

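With 1 library left out, the 10 chaperones called in M14A printed over M14A flask ranged from 1 to 9 and in M14A flask over HepaRG flask from 0 to 4. Other chaperone genes called ranged from 13 to 53 and from 5 to 31, and all genes from 2495 to 7889 and from 2788 to 6117. Leaving out M14A flask library 1 gave the highest count of each. With 1 printed library left, that library is assumed to vary like the other groups. In M14A printed over M14A flask, all genes called were 2416 when only the groups compared were fitted and 2368 at a threshold of 0.01, and other chaperone genes were 12 in either case and 19 under quantile normalization. In M14A flask over HepaRG flask, all genes called were 2341 with a filter at 5 FPKM and 2544 at a threshold of 0.01, where 5 other chaperone genes were called. There, equal FPKM totals, with or without mitochondrial genes, and quantile normalization each called 1 of the 10 (HSPB1, lower), and 21, 19 and 25 other chaperone genes, against 37.8, 35.3 and 36.4% of all genes. With the length and GC trend removed, an alternative chosen after seeing the data, it was 2 of the 10 and 22 others, against 43.9% of all genes. Removing M14A flask library 1 as well gave 4 of the 10, 38 others and 7330 genes (51.6% of all) there, and 9 of the 10, 58 others and 8260 genes (58.1%) in M14A printed over M14A flask. Signs turned for values near 0 or under another scaling. In M14A printed over M14A flask at equal FPKM totals they were -0.52 for HSPA8, -0.33 for HSP90AA1, -0.73 for DNAJB1, -0.14 for HSPD1, -0.14 for CDC37, -0.0011 for CACYBP, -0.40 for HSF1 and -0.42 for HSF2. Without mitochondrial genes in those totals they were -0.34 for HSPA8, -0.15 for HSP90AA1, -0.55 for DNAJB1, -0.22 for HSF1 and -0.28 for HSF2. Under quantile normalization they were -0.75 for HSPA8, -0.33 for HSP90AA1, -0.32 for DNAJB1, -0.081 for HSPB1, -0.13 for HSPD1 and -0.087 for CDC37. With the length and GC trend removed they were -0.061 for DNAJB1 and -0.19 for HSF2, and -0.28 for HSF2 also without M14A flask library 1. In M14A flask over HepaRG flask HSPA6 turned to -0.020 with that trend removed, and without M14A flask library 1 as well HSPA6 turned to -0.023, HSP90AA1 to 0.14 and HSPH1 to 0.014. With single libraries left out the values, in M14A flask over HepaRG flask, ranged from -0.35 to 0.13 for HSP90AA1, -0.41 to 0.012 for HSPD1, -0.057 to 0.048 for HSPE1, -0.31 to 0.11 for DNAJB1, -0.59 to 0.095 for HSPA1B and -0.28 to 0.055 for HSF1. In M14A printed over M14A flask they ranged from -0.15 to 0.27 for DNAJB1 and -0.045 to 0.38 for HSF2. The cause was not tested. At equal totals the share of higher genes among calls was 6.96% (13.3% without mitochondrial genes) in M14A printed over M14A flask, against 53.3% as deposited, and 38.0% against 52.3% in M14A flask over HepaRG flask. Same-numbered libraries of M14A flask and HepaRG flask deviated together at -0.07, 0.08 and -0.16. Those of M14A printed and M14A flask correlated at 0.49 and 0.36, over only 2 pairs, where the deviations of the 2 printed libraries are mirror images by construction. With fewer than 3 such pairs and no label of a shared batch, the numbers were not taken as pairs. With a replicate block 4380 genes, 3 of the 10 and 25 other chaperone genes were called in M14A printed over M14A flask, and 4419, 0 and 11 in M14A flask over HepaRG flask. DNAJB1 then stood at -0.057. Flask values of HSPA6 rest on 3 to 25 reads, which limits any difference between the flask lines in that gene.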
